A study of Mus musculus with 4 samples.

Results

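Type I interferon-stimulated genes are described here across the cells of mouse tumor ascites. The set was a list of 41 gene symbols, of which 39 were measured among the 32285 genes of the count matrices; Mx1 and Mx2 were not analysed here. Genes were matched by symbol alone. Ascites cells came from female FVB mice that carried Br-Luc cells, a syngeneic mouse ovarian cancer line of the genotype p53-/-, brca1-/-, myc, Akt-myr, in the peritoneal cavity. Mice received a locked-nucleic-acid control siRNA (siCont) or one against Fxr1 (siFXR1-LNA), both carried by jetPEI, and cells were collected 6 weeks after tumor cell injection. Both groups therefore shared the tumor, the carrier and repeated exposure to an siRNA, and no untreated mice were analysed here. There were 2 droplet libraries per group, each of ascites pooled from several mice and treated with a red cell lysis buffer. Every p-value therefore measured the spread between pooled libraries and not between animals. In the paper, low sequencing yield led its authors to drop a library of the siFXR1-LNA group, without naming which. Both libraries of that group were kept here.

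Type I interferons bind a receptor made of Ifnar1 and Ifnar2, and the kinases Jak1 and Tyk2 then phosphorylate transcription factors such as Stat2. With Irf9, Stat2 is part of a complex that binds the interferon-stimulated response element, a repeat of GAAA, in the promoters of antiviral genes. Their products bind viral RNA (the Ifit and Oas families), conjugate or remove the ubiquitin-like protein Isg15, hold virions at the membrane (Bst2), sense nucleic acids (Ddx58, Ifih1, Zbp1, the p200 family) or renew the response itself (Irf7, Stat2, Irf9).

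The element is shown for 6 of the 7 genes described in most depth, because it is the feature such promoters are known for and the symbols were matched without it. Sequences are RefSeq promoter stretches on GRCm38.p6, read 5′ to 3′ on the strand of the gene and ending upstream of its start. Capitals mark the motif searched, GAAA, then any 2 bases, then GAAA, or its reverse complement, with overlapping matches run together. Isg15 is at chr4:156200855-156200916 on the minus strand, Ifit1 at chr19:34640765-34640833 and Ifit3 at chr19:34583353-34583436 on the plus strand, Rsad2 at chr12:26456543-26456592 and Bst2 at chr8:71537567-71537622 on the minus strand, and Stat2 at chr10:128270256-128270305 on the plus strand.
Isg15: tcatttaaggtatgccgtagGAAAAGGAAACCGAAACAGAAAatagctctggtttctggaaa
Ifit1: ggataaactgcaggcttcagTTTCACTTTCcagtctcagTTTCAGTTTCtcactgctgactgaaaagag
Ifit3: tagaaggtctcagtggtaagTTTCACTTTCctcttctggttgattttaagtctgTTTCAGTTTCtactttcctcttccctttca
Rsad2: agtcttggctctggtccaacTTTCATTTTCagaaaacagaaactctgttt
Bst2: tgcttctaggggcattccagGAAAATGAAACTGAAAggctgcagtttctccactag
Stat2: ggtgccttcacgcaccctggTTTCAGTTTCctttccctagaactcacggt
Of the 32 measured genes with a promoter window (250 bases before to 50 after the start), 18 held the motif on either strand (56.2%), against 1079 of 27025 genes in all (3.99%). The window of Irf7, the seventh gene, held none. A match is a description of the letters and not evidence of binding. In macrophages the median log2 difference between groups was -2.18 for the 18 genes with the motif and -2.4 for the 14 whose window lacked it.

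Libraries held 78179267 to 113606837 UMIs (unique molecules) in 17309 to 54665 barcodes, and 575 to 2846 kept barcodes were shared between any 2 libraries. Of 132644 kept cells, 46576 formed a shallow unnamed cluster (0.157% and 0.211% of the siCont libraries, 75.5% and 32.2% of the other pair) and 38037 were erythrocytes by their hemoglobin (61% and 62.9%, against 0.0405% and 0.373%). The shallow cluster had 5 of 9 epithelial or mesothelial markers raised, but stayed unnamed because none of them was among its 10 leading genes and its median depth was 1281 UMIs a cell, against 5730 in the named epithelial or mesothelial cluster. Fxr1, the gene targeted, was not lower in the libraries labelled siFXR1-LNA: over all barcodes it stood at 57.3 and 36.6 counts per 1000000 UMIs (CPM) in siCont and at 104 and 74.4 CPM in siFXR1-LNA, and in macrophages at 65.4 and 60.8 against 73.5 and 68.7 CPM. In epithelial or mesothelial cells Fxr1 stood at 109 and 125 against 140 and 139 CPM (log2 0.28, edgeR adjusted p = 0.51). It was called in no type where it was tested (edgeR adjusted p = 0.0836 in macrophages). Its log2 difference lay below zero in mature DCs alone (-0.14). The all-barcode values also compare libraries with unlike erythrocyte shares. No fall of the transcript was thus detected. Every direction below is that of the libraries labelled siFXR1-LNA against those labelled siCont. Cell types are clusters named from marker lists, and a level is the UMI count of a gene, or of all 39 genes together, summed over the cells of a type in a library and divided by the type's total.

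The summed level of the 39 genes was lower in both libraries labelled siFXR1-LNA than in both siCont libraries in each of the 9 cell types compared. In macrophages, identified by complement C1q and Csf1r, the sum was 4635 and 5494 CPM in siCont and 814 and 1130 CPM in siFXR1-LNA. In granulocytes it was 4676 and 4240 against 939 and 1355 CPM, and in dendritic cells (DCs) 4723 and 5918 against 1369 and 1617 CPM. The 3 myeloid classes thus started from similar levels in siCont. Mature DCs, marked by Ccr7 and Fscn1, held 2875 and 3860 against 758 and 1079 CPM. Plasmacytoid DCs, known as strong producers of type I interferon, had the highest sums in all 4 libraries, 6008 and 7924 against 2849 and 4129 CPM. Much of this was Bst2, also a marker of these cells: without it, an alternative chosen after seeing the data, their sums were 3542 and 3950 against 619 and 1062 CPM, below those of DCs in all 4 libraries.

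B cells, epithelial or mesothelial cells and mast cells stood lower in siCont than the DC and myeloid classes, and T cells overlapped mature DCs. T cells held 2903 and 2964 against 585 and 808 CPM, and B cells 1962 and 2225 against 479 and 674 CPM. Epithelial or mesothelial cells held 1151 and 1395 against 360 and 486 CPM, and mast cells 1550 and 1389 against 618 and 496 CPM. Barcodes called erythrocytes, used here as background, held 1421 and 1156 CPM in siCont (969 and 666 CPM without Isg20). The unnamed shallow cluster held 413 and 784 CPM in siFXR1-LNA. In the siCont erythrocyte barcodes Isg20 stood at 452 and 489 CPM, Isg15 at 321 and 187 CPM and Rsad2 at 263 and 298 CPM. Rsad2 was thus above its 75.2 and 81.4 CPM in siCont macrophages. The parts of free RNA and of the barcodes' own transcripts in these values were not tested. The siCont sums of epithelial or mesothelial cells and mast cells were thus close to those of erythrocyte barcodes. The siFXR1-LNA sums of T cells, B cells, epithelial or mesothelial cells and mast cells, from 360 to 808 CPM, lay in or near the range of the unnamed cluster.

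The ratio of the group means, siCont over siFXR1-LNA, was 5.21 in macrophages (5060 ± 608 against 972 ± 224 CPM, SD, n = 2 each). It was 4.21 in T cells, 3.89 in granulocytes, 3.67 in mature DCs, 3.63 in B cells, 3.56 in DCs, 3.01 in epithelial or mesothelial cells, 2.64 in mast cells and 2.0 in plasmacytoid DCs. Without Bst2 it was 4.46 in plasmacytoid DCs and 5.22 in macrophages. With 2 libraries against 2, an exact permutation test of a sum cannot go below p = 0.333 (two-sided), so the sums are given without a test. Within siFXR1-LNA, replicate 2 was the higher library in 8 of 9 types, and within siCont in 7 of 9.

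**Figure D1:**
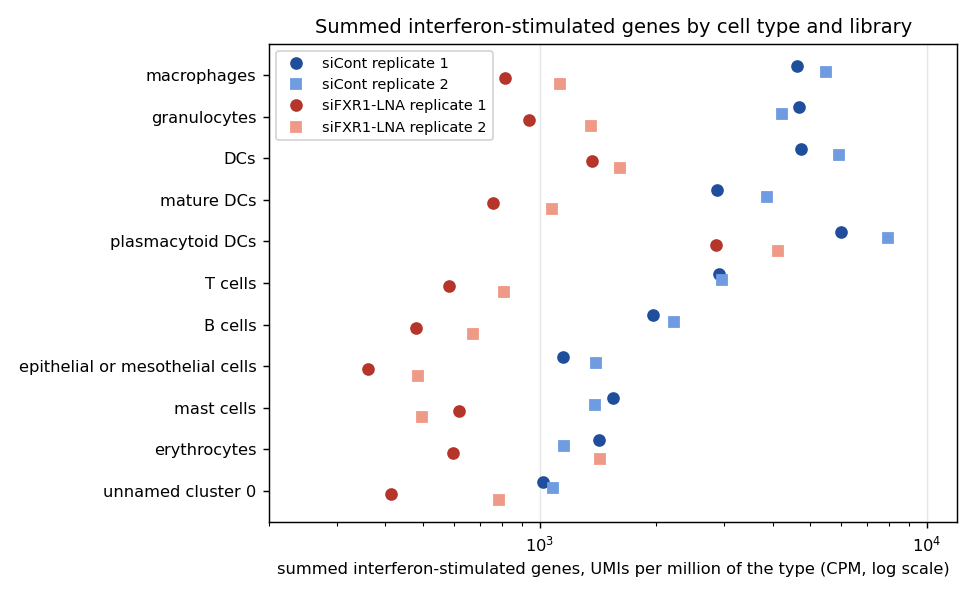
Summed level of the 39 interferon-stimulated genes (CPM, log scale) in each cell type, 1 point per library (circles replicate 1, squares replicate 2). In the 9 named types from macrophages to mast cells both red points lie below both blue points, while erythrocytes and the unnamed cluster, shown as background, lie at 413 to 1432 CPM.

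In macrophages all 39 genes fell past the threshold (edgeR quasi-likelihood test over all 14297 genes, Benjamini-Hochberg adjusted p from 0.00474 to 0.0297). Of all macrophage genes, 9.9% fell. All 39 were also lower in both libraries labelled siFXR1-LNA, but the share of all macrophage genes that were so is not given here. The median log2 difference of the 39 was -2.19, beside 0.01 over all genes, and single genes ranged from -6.23 to -1.09. None of the 39 was called higher by edgeR (0 were higher at an unadjusted p under 0.05) or by DESeq2, which called all 39 lower. Over all macrophage genes edgeR called 2762 and DESeq2 3292 in either direction. Here and below, counts at an unadjusted p, of groups that do not overlap or from alternative fits mostly stand without a share of all genes. They are therefore not read as a result about the 39. The 5 most abundant (Bst2, Isg15, Irf7, Trim30a and Slfn5) made up 37.4% of the sum in siCont replicate 1. In these cells macrophage markers summed to 13500 and 12200 against 4720 and 6920 CPM, granulocyte markers to 105 and 418 against 1110 and 1350 CPM, and erythrocyte markers to 81900 and 58700 against 29600 and 12400 CPM. Their part in the differences was not tested. In bulk sums of this kind, fewer responding cells and less RNA per cell cannot be told apart.

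The 5 Ifit genes, whose proteins bind foreign RNA ends, had log2 differences from -6.23 to -3.87. They lie side by side on chromosome 19 (GRCm38, from Ifit2 at 34550694 to the end of Ifit1 at 34650009). Ifit3 stood at 85.6 and 115 CPM in siCont and at 1.84 and 4.44 CPM in siFXR1-LNA, a 27.4-fold difference (log2 -4.78 ± 0.43 SE, adjusted p = 0.00665). Ifit1 stood at 33 and 58.8 against 1.67 and 3.68 CPM (14.8-fold, adjusted p = 0.0112), and Ifit2 at 76.5 and 112 against 5.97 and 5.35 CPM (14.7-fold). The groups were apart by more than the spread within either. Ifit1bl1 had the largest log2 difference, -6.23 ± 0.49, from 11.1 and 19.9 CPM to 0.132 and 0.213 CPM. Reads of Ifit3 and Ifit3b, of Ifit1 and Ifit1bl1, and of the Oas1 and Slfn copies can be shared between near-identical genes, so single values within these families are uncertain.

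Isg15, the ubiquitin-like modifier (chromosome 4, 156199424 to 156200818), stood at 305 and 432 CPM in siCont and at 35.7 and 37.6 CPM in siFXR1-LNA (8.86-fold, log2 -3.15 ± 0.23, adjusted p = 0.00516). Usp18, the protease that removes Isg15 and restrains the receptor, went from 37.4 and 52.6 to 4.48 and 6.91 CPM (6.91-fold). Herc6, the mouse ligase of Isg15, went from 56.2 and 59.9 to 11.9 and 16.2 CPM (3.63-fold).

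Among the regulators, Irf7, which amplifies interferon production, had the largest fall, from 303 and 432 to 23.9 and 40.1 CPM (10.1-fold, log2 -3.34 ± 0.34, adjusted p = 0.00783). Stat2 went from 95.5 and 106 to 17.3 and 27.3 CPM (3.96-fold, adjusted p = 0.0106). Irf9 had the smallest fall of the 39, from 52.7 and 53.2 to 18.4 and 25.1 CPM (2.14-fold).

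The 6 genes of the oligoadenylate synthetase family, which include the Oas-like Oasl1 and Oasl2, fell by a median of 2.55 on the log2 scale. Oas3 was at -3.32 ± 0.23 and Oas1g at -3.23 ± 0.30. The 4 Schlafen genes ranged from -3.60 for Slfn4, a myeloid gene, to -1.30 for Slfn8. Ifi44 went from 33.4 and 38 to 0.483 and 1.06 CPM (log2 -5.28). The 7 sensors of RNA and DNA had smaller differences, from -2.41 for Zbp1 to -1.15 for Ifi204. Bst2 (tetherin) was the most abundant of the 39, at 637 and 704 against 111 and 150 CPM (4.51-fold, adjusted p = 0.00706). Rsad2 (viperin) stood at 75.2 and 81.4 against 25.9 and 21.8 CPM (2.89-fold, adjusted p = 0.00746).

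**Figure D2:**
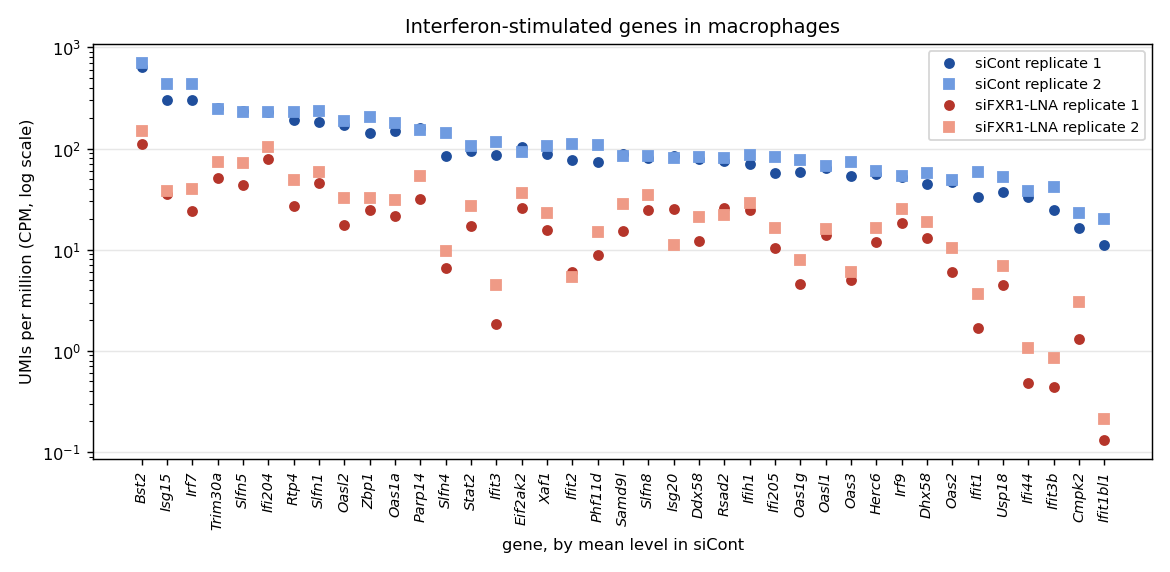
Level of each gene in macrophages (CPM, log scale), 1 point per library, ordered by mean siCont level. Blue siCont points lie above red siFXR1-LNA points for all 39 genes, with the widest gaps at Ifit3, Ifit3b, Ifi44 and Ifit1bl1. The share of all macrophage genes with such a gap is not given.

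The difference in macrophages was not even over their subclusters. A subcluster led by Slfn4, Nr1h3 and Cxcl10, with Ace, Irf7 and Ifit3 also among its 10 leading genes, held 1036 and 713 cells in siCont (23.7% and 33.3% of macrophages) and 0 and 1 cells in siFXR1-LNA, where a count of 0 allows up to 3 cells. In siCont its sums were 9744 and 11430 CPM. Isg15 reached 861 and 1060 CPM there, and Irf7 970 and 1090 CPM. A subcluster led by Saa3, Nos2 and Mt2, with the neutrophil chemokines Cxcl2 and Cxcl3 also leading, had the opposite distribution, with 114 and 44 cells against 2724 and 2330 (69.3% and 63.5% of macrophages), and sums of 3149 and 3467 against 713 and 794 CPM. By the marker rule it had 4 raised granulocyte markers and 1 raised macrophage marker, so its name rests on its parent clusters. Since members lead the first subcluster, its size and level follow in part from the clustering.

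In the subcluster led by Alox15 and Prg4, genes known from resident peritoneal macrophages, both groups were well represented, with 2977 and 1227 against 1182 and 1292 cells. Its sums were 3275 and 2216 against 1150 and 1907 CPM, a ratio of 1.80. Replicate 2 of the 2 groups, at 2216 and 1907 CPM, lay close together. Isg15 was at 152 and 78.9 against 38.6 and 45 CPM (adjusted p = 0.430), and Stat2 at 63.2 and 40.1 against 24 and 47.5 CPM, where the groups overlapped. No gene of the 39 was called by edgeR (0 of 39, 20 at an unadjusted p under 0.05, median log2 difference -0.92), DESeq2 called 2, and 0% of all genes of this subcluster were called lower.

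When the Saa3 and Nos2 cells that formed a cluster of their own were left out, the remaining macrophages, found in all 4 libraries, had sums of 4635 and 5496 against 1126 and 1866 CPM (ratio 3.39). There edgeR called 0 of the 39 genes (lowest adjusted p = 0.0731, 39 at an unadjusted p under 0.05, median log2 difference -1.93) beside 0% of all genes, and DESeq2 called 36. Isg15 was 8.99-fold lower there (305 and 432 against 39.0 and 43.3 CPM), close to its 8.86-fold in all macrophages. Within the Saa3 and Nos2 subcluster 24 of 37 tested genes fell and 1, Bst2, rose, beside 14% of its genes that fell and 35.9% called in either direction. In the cycling subcluster (Mki67, Top2a) 26 of 39 fell, beside 2.12%, with sums of 3926 and 3456 against 807 and 1135 CPM. These subsets were chosen after the data were seen. When the interferon genes were kept out of the clustering, the Alox15 subcluster again had a ratio of 1.82 with 0 of 39 called, and a subcluster led by Slfn4 and Nr1h3 again held 1011 and 707 against 0 and 0 cells. In that clustering a subcluster led by Saa3 and Mt2 held 1 and 2 against 2099 and 1909 cells. Another, led by Cacna1d with Nos2 also leading, held 111 and 43 against 606 and 406 cells. There 24 of 33 genes fell, beside 8.64% of its genes called, with a ratio of 3.58. The siCont and siFXR1-LNA cells of the Saa3 and Nos2 subcluster may thus be unlike cells, which was not tested.

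**Figure D3:**
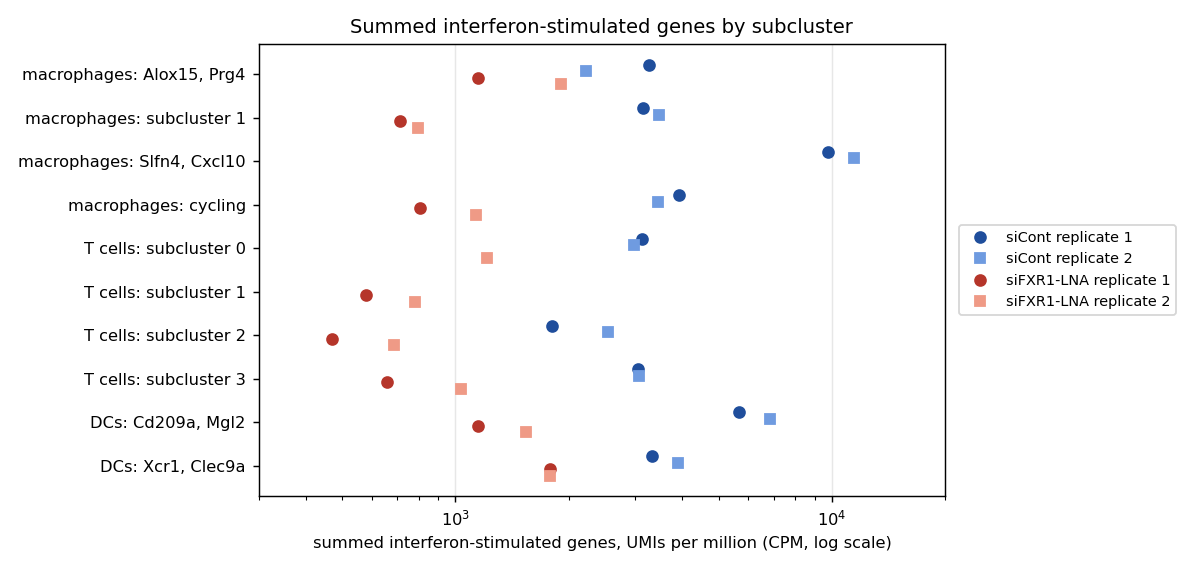
Summed level of the 39 genes (CPM, log scale) in subclusters of macrophages, T cells and DCs, 1 point per library with at least 10 cells of the subcluster. The subcluster led by Slfn4 and Cxcl10 has siCont points alone, at 9744 and 11430 CPM. The 4 points of the Alox15 and Prg4 subcluster lie at 1150 to 3275 CPM, and those of the Xcr1 and Clec9a DC subcluster at 1779 to 3900 CPM.

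Cells differed in depth (median 4944 and 7933 UMIs per macrophage in siCont, 5217 and 8605 in siFXR1-LNA), so each macrophage was thinned to 1000 UMIs. After thinning, 40.3% (95% exact binomial interval 38.8 to 41.7) and 41.2% (39.0 to 43.3) of siCont macrophages held at least 5 UMIs of the 39 genes, against 0.946% (0.667 to 1.30) and 3.83% (3.23 to 4.50) in siFXR1-LNA. Intervals cover counting error over cells only. Between groups the exact permutation p was 0.333, the smallest that 4 libraries allow. Macrophages with none of these UMIs made up 6.54% and 12.6% against 47.0% and 38.8%. In thinned erythrocyte barcodes, used as background, 3.60% and 2.49% of those in siCont held at least 5. Without thinning the macrophage shares were 90.2% and 87.4% against 40.6% and 71.0%.

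**Figure D4:**
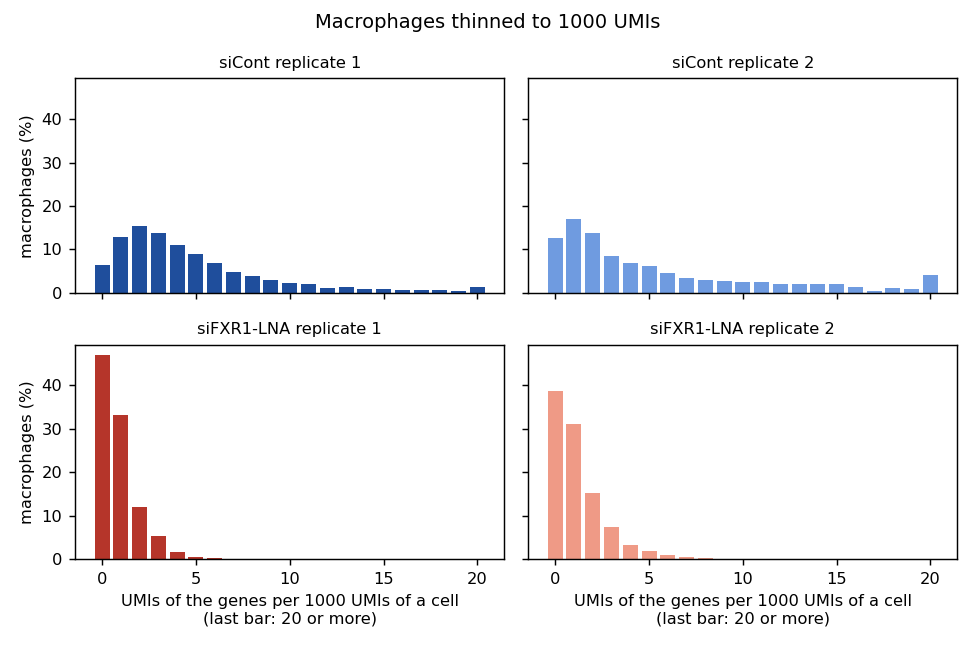
Distribution of the UMIs of the 39 genes per macrophage after thinning each cell to 1000 UMIs, as percent of macrophages in each library (the last bar holds 20 or more). The siCont libraries have a long right tail, with 1.37% and 4.19% of cells in the last bar, and the siFXR1-LNA libraries are concentrated at 0 and 1.

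In granulocytes, marked by S100a8 and Retnlg, 28 of 39 genes fell, beside 2.57% of all granulocyte genes, and the median log2 difference was -2.45 against -0.01 over all genes. Ifit3b had the largest, -7.02 ± 0.52, from 98.6 and 96.2 to 0.612 and 1.12 CPM. Ifit3 went from 135 and 79.7 to 1.66 and 2.75 CPM (55.0-fold, adjusted p = 0.000452) and Ifit1 from 118 and 79.1 to 1.66 and 4.48 CPM (36.7-fold). All 5 Ifit and all 6 Oas genes fell. Isg15 stood at 461 and 281 against 58.8 and 69.3 CPM (6.64-fold), Irf7 at 136 and 78.5 against 7.95 and 16.8 CPM (9.88-fold), and Rsad2 at 219 and 181 against 43.3 and 38.7 CPM (5.71-fold). Stat2 (31.1 and 33.6 against 11.6 and 15.8 CPM, adjusted p = 0.0638) and Bst2 (109 and 70.6 against 29.9 and 45.8 CPM, adjusted p = 0.0766) did not pass, with groups that did not overlap. Slfn4, at 642 and 705 against 106 and 180 CPM, was the most abundant member there in siCont. Slfn1, at 537 and 637 against 270 and 449 CPM, was the most abundant in siFXR1-LNA.

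Granulocytes were few in siCont (436 and 902 cells, against 5470 and 4797), and erythrocyte markers summed to 246000 CPM in both of those libraries, against 84800 and 43600 CPM in siFXR1-LNA. With hemoglobin left out of the total, the log2 difference of the sum was -2.27 in place of -1.96. Without siFXR1-LNA replicate 1, 11 genes were called, and without siFXR1-LNA replicate 2, 18. With no filter on low counts edgeR called 0 of the 39, while DESeq2 called 30 and 37 were lower at an unadjusted p under 0.05 with the filter.

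In DCs 35 of 39 genes fell, beside 1.45% of all DC genes, with a median log2 difference of -2.15 against 0.00. Isg15 stood at 437 and 530 against 56.5 and 59.4 CPM (8.57-fold, adjusted p = 0.00349), Irf7 at 261 and 356 against 26.3 and 33.8 CPM (10.4-fold), Bst2 at 477 and 587 against 130 and 149 CPM (3.91-fold) and Stat2 at 148 and 175 against 70.4 and 76.2 CPM (2.25-fold). Ifit3 went from 105 and 140 to 12.4 and 11.9 CPM (10.4-fold), and Rsad2 from 72.1 and 66.8 to 18.6 and 13.2 CPM (4.6-fold). Ifit1 went from 51.9 and 71.6 to 5.42 and 16 CPM (5.44-fold). Samd9l, Ifih1, Ifi205 and Irf9 did not pass, and Ifi205, a p200 DNA-binding gene, was among the most abundant there (376 and 403 against 194 and 245 CPM). Without siFXR1-LNA replicate 1 the count was 13. With clusters drawn at a resolution of 0.3, which put other cells in the DC class, 4 genes were called. In these cells DC markers summed to 1670 and 1890 against 639 and 958 CPM, granulocyte markers to 132 and 724 against 1230 and 1050 CPM, and erythrocyte markers to 87500 and 70100 against 30200 and 18300 CPM. Their part in the differences was not tested.

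The 2 DC subclusters differed in size of the difference. In the one led by Mgl2 and Cd209a, markers of type 2 DCs, 38 of 39 genes fell (beside 1.88% of its genes), and the sums were 5664 and 6857 against 1150 and 1544 CPM, a ratio of 4.65. In the one led by Xcr1 and Clec9a, markers of type 1 DCs, 5 of 35 fell (beside 0.263%), and the sums were 3323 and 3900 against 1779 and 1788 CPM, a ratio of 2.02. The difference between the subclusters was not tested.

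In mature DCs 20 of 37 tested genes fell, beside 1.61%, with a median of -1.86 against 0.01. The count was 13 without cells over 5% hemoglobin, 31 with no filter on low counts, 33 with the replicate number as a block and 34 at a resolution of 0.3. Isg15 stood at 403 and 652 against 71.6 and 93.1 CPM (6.66-fold, adjusted p = 0.00455), Irf7 at 118 and 205 against 2.98 and 16.8 CPM, and Bst2 at 384 and 440 against 104 and 76.3 CPM. Ifit1 (42.5 and 67.9 against 2.98 and 9.15 CPM), Ifit3 (38.7 and 71.2 against 0 and 4.58 CPM) and Rsad2 (83.3 and 86.9 against 11.9 and 15.3 CPM) fell as well. Stat2 did not pass (78.5 and 91.1 against 26.9 and 48.8 CPM, adjusted p = 0.105). None of the 7 genes had overlapping groups, a count given without the share of all genes. Ifit3b, Ifit1bl1 and Ifi44 had no UMI in either library labelled siFXR1-LNA: against a floor of 3 UMIs over both libraries they were at least 9.49-fold, 8.53-fold and 4.47-fold lower, and Ifi44 did not pass the test. With these at their bounds the median was again -1.86. Slfn4 was at 19.1 and 19.0 against 38.8 and 13.7 CPM, with overlapping groups, in cells where granulocyte markers summed to 77.5 and 356 against 4130 and 1470 CPM. The part of those transcripts in the value was not tested.

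Of the 7 genes that could be tested in the 82 plasmacytoid DCs, 2 fell, beside 1.07% of genes: Isg15, from 432 and 595 to 20.6 and 27.7 CPM (19.7-fold, adjusted p = 0.00109), and Slfn5. Irf7, which these cells hold at rest, was at 483 and 458 against 0 and 157 CPM (adjusted p = 0.0768), and Stat2 at 263 and 332 against 82.6 and 139 CPM (adjusted p = 0.134). Bst2, a surface marker of this cell type in mice, was at 2470 and 3970 against 2230 and 3070 CPM, and the groups overlapped. The 32 others had too few UMIs, so differences were not detectable at this depth. DESeq2 called 1 gene, and edgeR called 8 with no filter on low counts and 5 with the replicate number as a block.

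The siCont sums of T cells differed by an SD of 43.5 CPM, the smallest among the 9 types, and 9 of 37 tested genes fell, beside 0.108% of all T cell genes: Ifit3b, Ifit3, Ifit1, Ifi44, Irf7, Usp18, Ifit1bl1, Slfn5 and Rtp4. Ifit3 went from 78.7 and 87.7 to 3.39 and 3.32 CPM (27.6-fold, adjusted p = 0.0182), Ifit1 from 61.6 and 75.4 to 1.94 and 4.65 CPM (22.3-fold), and Irf7 from 111 and 114 to 6.78 and 13.3 CPM (12.3-fold). Isg15 (255 and 199 against 47.5 and 17.6 CPM, adjusted p = 0.136), Bst2 (219 and 227 against 35.3 and 71.8 CPM), Stat2 (45.3 and 47.2 against 14 and 17.3 CPM) and Rsad2 (133 and 90.4 against 36.8 and 16.6 CPM) did not pass. All 37 tested genes lay below zero, and 37 of the 39 measured genes were lower in both libraries labelled siFXR1-LNA, as were 12.3% of all T cell genes. DESeq2 called 32, and edgeR 34 with no filter on low counts and 32 with the replicate number as a block. The count was 31 without siCont replicate 1, 14 without siCont replicate 2 and 15 without siFXR1-LNA replicate 2. T cell markers summed to 1680 and 2130 against 614 and 1560 CPM in these cells (5 of 6 lower in both libraries), and granulocyte markers to 65.7 and 444 against 683 and 714 CPM. Their part in the differences was not tested.

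T cells too were unevenly spread over subclusters: the one led by Trbv3 and Ifi27l2a, with Ifit3 and Isg15 among its leading genes, held 1674 and 1788 against 5 and 51 cells, and one led by Ccn2, Ndrg1 and Vegfa held 2 and 7 against 731 and 512. The 2 subclusters present in both groups could be tested. In the Cd163l1 and Tcrg-V6 subcluster, genes of gamma-delta T cells, 9 of 24 fell (beside 0.398%) with sums of 1803 and 2541 against 469 and 688 CPM. In the Themis subcluster 10 of 29 fell (beside 0.484%) with sums of 3059 and 3075 against 660 and 1032 CPM.

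In B cells edgeR called 0 of 37 tested genes, beside 0.0161% of all B cell genes, although 34 lay below zero at an unadjusted p under 0.05 and DESeq2 called 27. With the replicate number as a block edgeR called 32, and with no filter on low counts 34. The median log2 difference, -2.22, was that of T cells. Of the 39, 35 were lower in both libraries labelled siFXR1-LNA, as were 14.5% of all B cell genes. Ifit3 was at 58.1 and 72.2 against 1.51 and 6.22 CPM (adjusted p = 0.0682), Irf7 at 84.7 and 110 against 4.03 and 12.4 CPM (adjusted p = 0.0697), Isg15 at 148 and 112 against 43.4 and 19.2 CPM (adjusted p = 0.119) and Bst2 at 157 and 155 against 33.8 and 48.1 CPM (adjusted p = 0.0697). Ifit1 was at 17.2 and 19.2 against 0 and 2.26 CPM, Stat2 at 47 and 58.4 against 12.6 and 18.7 CPM, and Rsad2 at 90.6 and 84.1 against 26.2 and 15.3 CPM. The count was 34 without siCont replicate 1 and 28 without siCont replicate 2.

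Erythrocyte markers summed to 172000 and 168000 CPM in siCont B cells, against 75800 and 39300 CPM in siFXR1-LNA, and to 216000 and 181000 against 78000 and 39000 CPM in T cells. After thinning to 1000 UMIs, the mean was 1.90 and 2.06 UMIs of the 39 genes per siCont B cell and 2.96 and 3.11 UMIs per siCont T cell, against 1.37 and 1.04 per erythrocyte barcode of the same libraries. At least 5 UMIs were held by 10.2% and 14.0% of thinned siCont B cells and 3.60% and 2.49% of erythrocytes. In siFXR1-LNA the B cell means were 0.478 and 0.662. The part of free RNA or of erythrocyte transcripts in the lymphocyte values was not tested.

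In epithelial or mesothelial cells 21 of 38 genes fell, beside 4.89%, with a median of -1.76 against 0.00. Isg15 was at 97.7 and 140 against 15.6 and 10.7 CPM (8.46-fold, adjusted p = 0.000808), Ifit1 at 14.2 and 24.0 against 0.898 and 0.629 CPM (21-fold), Ifit3 at 24.8 and 50.9 against 2.69 and 3.77 CPM (11.2-fold), and Irf7 at 36.7 and 59.6 against 3.59 and 7.54 CPM (8.90-fold). Bst2 (115 and 176 against 18.3 and 52.2 CPM), Stat2 (46.7 and 57.7 against 16.8 and 24.2 CPM) and Rsad2 (37.6 and 43.2 against 12.1 and 8.49 CPM) fell as well. Ifit2 did not move with its neighbours: it was at 32.5 and 19.2 against 35.8 and 23.3 CPM (log2 0.18 ± 0.33, adjusted p = 0.795). Oasl2, in siCont the most abundant with Bst2 and Isg15, was at 110 and 147 against 54.2 and 101 CPM (adjusted p = 0.173). Erythrocyte markers in these cells summed to 67200 and 88000 against 27500 and 16100 CPM and macrophage markers to 775 and 284 against 410 and 414 CPM, and their part in the result was not tested. There were 122 such cells in siCont replicate 2, and 418 to 1478 in the other libraries.

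In mast cells, with 66 to 114 cells a library, only Isg20, Bst2 and Isg15 could be tested. All 3 fell, beside 1.31%, with Bst2 at 162 and 228 against 35.7 and 23.6 CPM and Isg15 at 196 and 119 against 47.6 and 11.8 CPM (adjusted p = 0.0268). Isg20, an RNA exonuclease, was also one of the 10 leading genes of the erythrocytes, and it stood at 332 and 260 against 71.3 and 0 CPM in mast cells, where erythrocyte markers summed to 289000 and 316000 against 53200 and 25200 CPM. Its level in types with hemoglobin transcripts is therefore uncertain. The same holds for Isg15 and Rsad2, at 321 and 187 CPM and 263 and 298 CPM in siCont erythrocyte barcodes. DESeq2 called 1 of the 3 genes tested in mast cells. There edgeR called 0 without siFXR1-LNA replicate 2 or with the replicate number as a block. Leaving out Isg20 changed the ratio of the sums from 2.64 to 2.25 in mast cells and from 5.21 to 5.22 in macrophages.

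**Figure D5:**
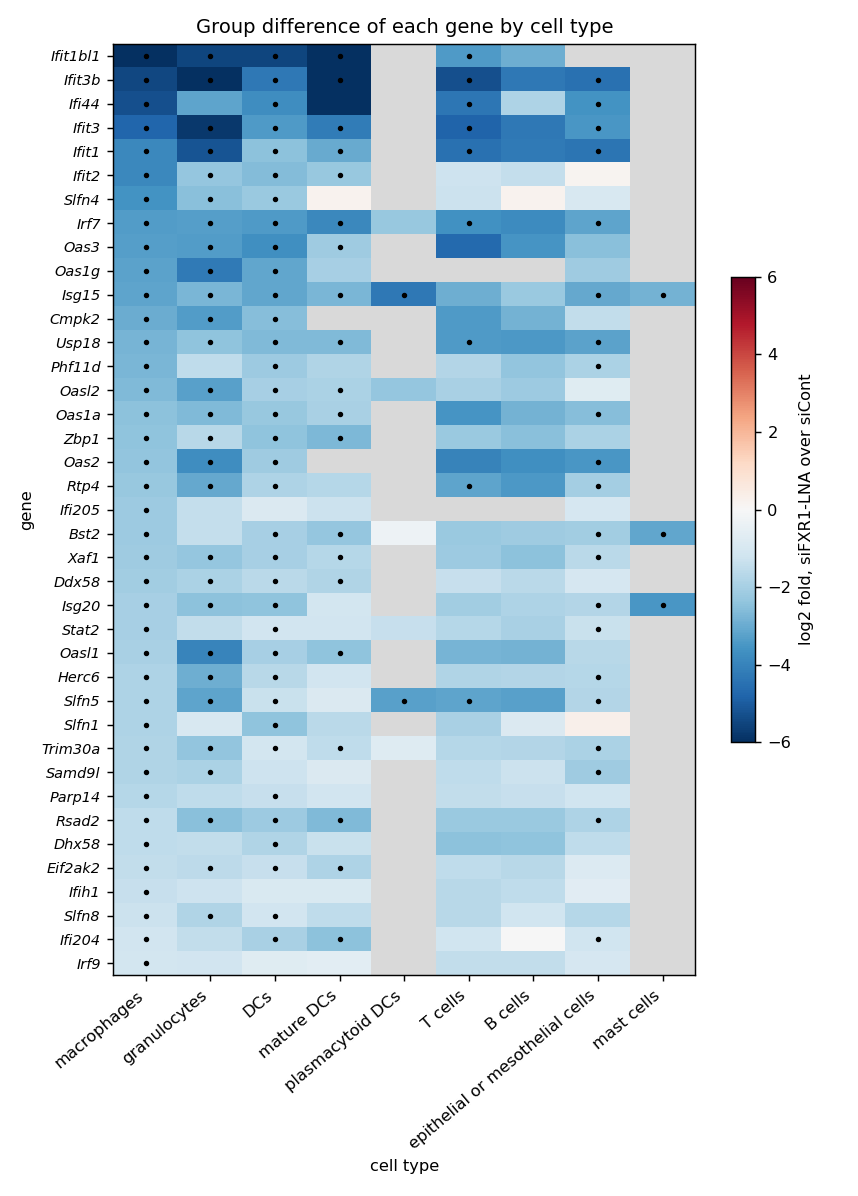
Log2 difference of each gene (rows, ordered by macrophages) in each cell type (columns), siFXR1-LNA over siCont, with a dot where the adjusted p was under 0.05 and grey where the gene was not tested. Nearly all cells of the map are blue (lower), and the pale ones include Ifit2 and Slfn1 in epithelial or mesothelial cells and Slfn4 in B cells and mature DCs.

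Over the 9 types, Isg15 fell in 7, and Ifit1, Ifit3, Ifit3b, Irf7, Slfn5 and Usp18 in 6. A call in one type and none in another does not show that the types differ, so each type was set against macrophages in a joint edgeR fit, with an interaction of group and type and each library as its own block. The genes of the 39 whose difference from macrophages passed the adjusted threshold were few: in DCs 7 (beside 7.6% of all genes), in B cells 4 (beside 3.16%), in granulocytes 3 (beside 4.39%), in T cells 2 (beside 1.43%), in epithelial or mesothelial cells 2 (beside 0.74%), in mature DCs 1 (beside 4.69%), in plasmacytoid DCs 1 (beside 0.231%) and in mast cells 0 (beside 0.145%). As a share of 39, the count in mature DCs lay below that of all genes, and the count in granulocytes not far above it. Counts this small are not read as a result about the set. At an unadjusted p under 0.05 there were 17 in DCs, 14 in granulocytes, 12 in B cells, 12 in epithelial or mesothelial cells, 9 in T cells, 8 in mature DCs, 5 in mast cells and 4 in plasmacytoid DCs. The share of all genes at that p is not given here, so these counts are not read as a result about the 39. Of the 20 differences past the adjusted threshold, 17 were smaller falls or no fall in the other type and 3 were larger falls. No fall was seen for Slfn4 in B cells and mature DCs (log2 0.22 in each) or for Ifit2 in epithelial or mesothelial cells (log2 0.18). Without siFXR1-LNA replicate 1 or without siFXR1-LNA replicate 2 the count in granulocytes and in plasmacytoid DCs was 0, and without siFXR1-LNA replicate 1 it was 0 in epithelial or mesothelial cells. In DCs it was 4 and 3 without these libraries. Leaving out siCont replicate 1 or siCont replicate 2 raised the counts to 11 and 9 in granulocytes, 5 and 6 in T cells, 11 and 7 in B cells and 4 and 4 in epithelial or mesothelial cells, and without siFXR1-LNA replicate 2 they were 1 in T cells and 2 in B cells. Over the genes with enough UMIs in the type, the median interaction was 0.31 in DCs (39 genes), 0.35 in mature DCs (37), 0.46 in epithelial or mesothelial cells (38), 0.03 in granulocytes (39), 0.04 in B cells (37) and -0.07 in T cells (37). In plasmacytoid DCs and mast cells 7 and 3 genes had enough UMIs, so no median is given.

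Ifit2 was the gene that most often differed, in 5 of the 8 types. Its log2 difference was -3.87 in macrophages. The interaction was 3.99 ± 0.45 in epithelial or mesothelial cells (adjusted p = 0.00676), 2.59 ± 0.35 in T cells (adjusted p = 0.0148), 2.37 ± 0.34 in B cells (adjusted p = 0.00439), 1.60 ± 0.40 in granulocytes (adjusted p = 0.0162) and 1.28 ± 0.25 in DCs (adjusted p = 0.00262). In T cells Ifit2 stood at 45.3 and 40.3 against 25.2 and 15.9 CPM, where Ifit3 had fallen 27.6-fold. Its RefSeq windows held no match to the motif, as those of Irf7 and Oasl2 did not. A link between a match in the window and the difference was not tested.

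In DCs, Ifit1 (1.37), Ifit3 (1.36), Ifi205 (1.35) and Stat2 (0.84) fell less than in macrophages. In granulocytes Oasl1 and Oas2 had larger differences, with interactions of -1.91 ± 0.36 and -1.24 ± 0.35. Ifit1bl1 had the smaller difference in T cells (2.78 ± 0.48) and B cells (3.25 ± 0.55), and Oasl2 in epithelial or mesothelial cells (2.02 ± 0.30). Slfn5, a nuclear Schlafen, had the larger difference in B cells, with an interaction of -1.51 ± 0.33. Bst2 differed in plasmacytoid DCs (1.75 ± 0.37, adjusted p = 0.00287). Slfn4 differed in B cells (3.75 ± 0.38) and mature DCs (3.61 ± 0.48), where it stood at 5.33 to 38.8 CPM. Granulocyte markers summed to 124 and 859 against 2120 and 2700 CPM in B cells, and their part was not tested.

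Other genes of the pathway were read from separate lists. Of 18 measured receptor, signalling and regulator genes, 8 fell and 5 rose in macrophages (median -0.61), where 9.9% of all genes fell and 9.42% rose. The cytosolic DNA sensor Cgas (log2 -1.89) and its adaptor Tmem173 (-1.44) fell there. The receptor chains Ifnar1 and Ifnar2 were not lower there: Ifnar1 stood at 70.4 and 59.6 against 85.2 and 98.2 CPM and Ifnar2 at 188 and 181 against 255 and 269 CPM, and both rose (0.69 each, adjusted p = 0.0277 and 0.0241). Socs3, a feedback inhibitor of cytokine receptors, rose (1.83) while Socs1 fell (-1.21).

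Of 16 tested genes that lean to interferon gamma, 12 fell and 1 rose in macrophages, with a median of -1.58, where 9.9% of all genes fell and 9.42% rose. Examples were Gbp4 (-3.00), the GTPase Iigp1 (-2.62) and Ciita (-2.02), the activator of class II genes. Cd274, the checkpoint ligand PD-L1, was the one that rose (29.6 and 29.7 against 154 and 148 CPM, log2 2.54 ± 0.12, adjusted p = 0.00357). Of 9 NF-kB genes 6 rose in macrophages, beside the same 9.42% of all genes, and none was called lower by edgeR, with Cxcl2, a chemokine that recruits neutrophils, at 9.66 and 11.9 against 717 and 888 CPM.

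Transcripts of the ligands were scarce. Ifnb1 was counted 1 and 85 times in siCont and 1 and 11 times in siFXR1-LNA, with 96 of the 98 UMIs in macrophages, so siCont replicate 2 held nearly all. The listed interferon alpha genes gave at most 2 UMIs each in the whole series. Ifng, made by T cells and NK cells, was counted 101 and 139 times in siCont and 12 and 35 times in siFXR1-LNA, of which 217 UMIs of 287 lay in T cells. None of the ligand genes had enough counts for the test in macrophages.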

How the data were processed

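Ascites cells of 2 siCont and 2 siFXR1-LNA libraries were profiled with a 10x Genomics single-cell 3′ protocol after red cell lysis. The authors deposited raw UMI counts for each gene in each barcode, without normalization; the submitters' processing notes name Cell Ranger 7.0.0 and mm10. A barcode was kept if it had 100 to 4800 genes and no more than 15% of its UMIs from mitochondrial genes. In Seurat 5.3.0 (R 4.3.3) the 4 libraries were clustered together without integration (2000 variable genes, 50 principal components, Louvain resolution 0.1). Clusters were named from 15 marker lists: a marker was raised at 2 times the mean of other clusters and in 5% of cells, and 3 raised markers were needed. A cluster much shallower than its sample or than the deepest cluster of its name, with none of that name's markers among its 10 leading genes, stayed unnamed. This naming rule was written after the clusters were seen. Macrophage and T cell clusters were clustered again, and finer clusters of DCs, NK cells or mixed markers were moved out. Doublets were not removed, and an alternative left out the 5% of cells with the highest Scrublet scores (Scanpy 1.11.5).

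UMI counts were summed per type and library. Types with at least 10 cells in every library were tested with edgeR 4.0.16 (TMM factors, filterByExpr, quasi-likelihood test, Benjamini-Hochberg adjustment over all genes, threshold 0.05) and, as an alternative, DESeq2 1.42.0. NK cells and platelets were too few. Interactions used both types with the library as a block. The tests were also run on simulated data, where the share of false calls was above the threshold in every type simulated when each gene had its own dispersion, so calls from 2 libraries a group may be too many. Members and lists were chosen with earlier results of these data known. Genes named are those past the threshold with the largest differences per type (at most 12), others of the same families by role, the 7 genes Isg15, Ifit1, Ifit3, Irf7, Bst2, Stat2 and Rsad2 in every type described, up to 5 interactions per pair, and pathway genes past the threshold with Ifnar1 and Ifnar2; a further pathway gene is not reported here. Depth per library ranged from 78179267 to 113606837 UMIs. Gene positions are from GENCODE vM21 and promoters from RefSeq, both GRCm38. Alternatives tried were other normalization, low-count filters, cell filters, clustering settings, thinning depths, a replicate block and each library left out.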

Additional observations from a re-analysis of the deposited data

Results flagged for a closer look

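The results below were singled out because an edgeR test found the group difference of a gene in 1 cell type to differ from its group difference in macrophages (interaction of group and cell type, library as a block, adjusted over all genes). Values are log2 differences in the type minus those in macrophages, so a positive value is a smaller fall or no fall. In granulocytes they were -1.91 for Oasl1, 1.6 for Ifit2 and -1.24 for Oas2. In DCs they were 1.37 for Ifit1, 1.36 for Ifit3, 1.35 for Ifi205, 1.28 for Ifit2 and 0.84 for Stat2. In T cells they were 2.78 for Ifit1bl1 and 2.59 for Ifit2, and in B cells 3.75 for Slfn4, 3.25 for Ifit1bl1, 2.37 for Ifit2 and -1.51 for Slfn5. Epithelial or mesothelial cells had 3.99 for Ifit2 and 2.02 for Oasl2, mature DCs 3.61 for Slfn4, and plasmacytoid DCs 1.75 for Bst2. In granulocytes and mature DCs such calls were near or below the share among all genes, which was 4.39% and 4.69%.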

How the results depend on the processing

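Under the alternatives run, direction was checked for the summed level of each type and for the thinned macrophage shares. It was also checked for Isg15, Ifit1, Ifit3, Irf7, Bst2, Stat2 and Rsad2 in macrophages. None of these changed direction. For single genes in the other types and for interactions only counts of calls were compared, which hold no direction. The Saa3 and Nos2 macrophage subcluster was not among the alternatives, and within it Bst2 was called higher. The subset alternatives and those without Isg20 or Bst2 were chosen after seeing the data. With no filter on low counts the genes called lower were 0 in granulocytes, 31 in mature DCs, 8 in plasmacytoid DCs, 34 in T cells and 34 in B cells. With the replicate number as a replicate block they were 33 in mature DCs, 5 in plasmacytoid DCs, 32 in T cells, 32 in B cells and 0 in mast cells. The number gives only 2 pairs, and same-numbered libraries deviated with a correlation of 0.0132 to 0.367 by type, so it was not taken as a pairing. DESeq2 called 1 in plasmacytoid DCs, 32 in T cells, 27 in B cells and 1 in mast cells. Calls over all genes moved too: in macrophages they were 2762 in the main fit, 3858 with the block and 4052 with no filter. Without the TMM factor, interactions were 5 in granulocytes, 14 in DCs and 5 in mature DCs. Other cell filters gave 0 (at least 500 genes) and 1 (mitochondrial limit of 30%) in mast cells. At resolution 0.3 there were 4 calls in DCs (log2 sum -1.01), 34 in mature DCs and 0 in mast cells. Keeping interferon genes out of the clustering gave 1 in mast cells (sum -1.66) and interactions of 2 in mature DCs and 1 in mast cells. Leaving out cells over 5% hemoglobin gave 13 in mature DCs, 1 in plasmacytoid DCs, 9 in B cells and 1 in mast cells, and leaving out the 5% highest Scrublet scores gave 1 in plasmacytoid DCs and 10 in B cells. The mast cell sum was -1.86 without hemoglobin in the total and -1.17 without Isg20, and the plasmacytoid DC sum -2.16 without Bst2. Macrophages of the cluster shared by all libraries gave 0 (sum -1.76) and the Alox15 subcluster 0 (sum -0.84). The Cd209a DC subcluster had a sum of -2.22, and the Xcr1 subcluster 5 calls and -1.02. The cause of these shifts was not tested.

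Leaving out each library in turn gave 26 to 39 calls in macrophages, 11 to 35 in granulocytes, 13 to 38 in DCs, 18 to 29 in mature DCs, 1 to 3 in plasmacytoid DCs, 12 to 31 in T cells, 0 to 34 in B cells, 19 to 26 in epithelial or mesothelial cells and 0 to 2 in mast cells. Interactions ranged from 0 to 11 in granulocytes, 3 to 9 in DCs, 0 to 1 in plasmacytoid DCs, 1 to 6 in T cells, 2 to 11 in B cells and 0 to 4 in epithelial or mesothelial cells. Mature DCs and plasmacytoid DCs formed no class of their own at 500 genes, nor plasmacytoid DCs at resolution 0.3 or with interferon genes left out, so these were not run. In plasmacytoid DCs and mast cells, 32 and 36 of the 39 genes had too few UMIs for the test.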

Other observations

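NK cells and cells with mixed markers, outside the tested types, also had lower summed levels in siFXR1-LNA. NK cells held 2396 and 2123 CPM in siCont (74 and 54 cells) against 222 and 570 CPM (4 and 10 cells). The macrophage-like subcluster that carried B and T cell genes, left out of macrophages, held 4612 and 5315 against 1108 and 1713 CPM in 585, 240, 22 and 49 cells, and macrophages with it added had 39 of 39 genes called lower and a ratio of 5.17. Ifne, an interferon made by reproductive tract epithelium, was counted 26 times in all, 24 of them in epithelial or mesothelial cells and 23 in siFXR1-LNA replicate 1. Erythrocyte barcodes in siFXR1-LNA were 22 and 63, with sums of 597 and 1432 CPM, and these overlapped the 1421 and 1156 CPM of siCont.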
